A study of Mus musculus with 24 samples.

Results

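Aminoacyl-tRNA synthetases are the enzymes that attach each amino acid to its transfer RNA, so that the ribosome can read the genetic code. Most cells carry one set for the cytoplasm and one for the mitochondria. The genes described here are 10 synthetases of the cytoplasmic set, chosen by symbol from 24411 genes counted in mouse liver: *Tars* (threonine), *Aars* (alanine), *Gars* (glycine), *Nars* (asparagine), *Sars* (serine), *Wars* (tryptophan), *Yars* (tyrosine), *Iars* (isoleucine), *Lars* (leucine) and *Mars* (methionine). They were chosen because *Tars* was higher in livers labelled HKO, and the question is what the other synthetases do. The members' levels in that comparison are therefore a description, with no p given for them, while genes outside the group were tested.

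In mammals, the enzymes made from *Iars*, *Lars* and *Mars* sit in a large multisynthetase complex, held together by scaffold proteins (*Aimp1*, *Aimp2* and *Eef1e1*), while the enzymes from the other members of the group act outside it. *Gars* supplies glycyl-tRNA synthetase to both cytoplasm and mitochondria. Many cytoplasmic synthetase genes are known targets of ATF4, the transcription factor of the integrated stress response, which cells start when amino acids run short or the endoplasmic reticulum is stressed, and *Wars* is also induced by interferon.

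The livers came from male mice of 2.5 months, fasted for 16 h, that carried floxed *E2f7* and *E2f8*, encoding cell cycle repressors of the E2F family, and an R26R-mTmG reporter on a mixed background, mostly FVB. In the LKO cohort, *Alb*-Cre deletes both genes in the liver from early life, and the controls were floxed littermates without Cre. In the HKO cohort, mice were injected at 2 months with AAV8-TBG-Cre, a virus whose TBG promoter acts in hepatocytes, or with AAV8-TBG-Null as the control. Libraries at 0 h hold 1 mouse each, with 4 control and 4 LKO mice and 3 AAV8-TBG-Null and 3 HKO mice. The LKO cohort was also sampled 12, 24, 48, 72 and 96 h after 300 mg/kg acetaminophen (APAP), which injures hepatocytes, with 1 library per genotype and time, pooled from 3 mice. The labels call these groups WT (control), KO (LKO), NULL (AAV8-TBG-Null) and CRE (HKO). The pools give no spread between mice.

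The 24 libraries held 12665686 to 19499897 reads on genes, so a level of 3 counts corresponds to 0.154 to 0.237 counts scaled to library size (CPM), a limit that covers counting error alone. Levels below are CPM after TMM scaling over all 24 libraries. The lowest count of a member in any library was 188. Counts of *E2f8* did not follow the labels: they were higher in the 3 libraries labelled HKO (30.7 to 83.9 CPM) than in AAV8-TBG-Null controls (15.2 to 26.4 CPM), and higher in every pool labelled LKO (14.6 to 46.7 CPM) than in the control pool of the same time (4.15 to 13.9 CPM). These counts cover the whole gene, so they do not measure the deleted exons. All genotype contrasts below are those of the labels. Hepatocyte markers summed to 51749 CPM or more in each library. In whole liver, fewer cells of a type and less RNA per cell cannot be told apart.

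To show what the synthetase genes share besides their function, their promoters were read from RefSeq (build GRCm38.p6), and 7 of the 10 members were searched. The motif searched was TGATGNAA on both strands, the core of the CCAAT enhancer binding protein and ATF response element to which ATF4 binds. It was found in 5 of the 7 windows of 300 bases (*Tars*, *Aars*, *Gars*, *Yars* and *Iars*), or 71.4%, and in 3.97% of all 32851 promoter windows of that length. Those 5 promoters are printed 5′ to 3′ on the gene's strand, as the 250 bases before the start of transcription and the 30 after it, with each match in capitals.
Tars, chr15:11399629-11399908, minus strand: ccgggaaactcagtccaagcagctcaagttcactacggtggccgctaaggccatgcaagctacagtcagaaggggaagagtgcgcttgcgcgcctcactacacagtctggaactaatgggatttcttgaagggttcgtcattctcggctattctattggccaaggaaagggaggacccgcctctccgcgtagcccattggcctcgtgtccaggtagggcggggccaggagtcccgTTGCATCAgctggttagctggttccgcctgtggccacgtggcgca
Aars, chr8:111033592-111033871, plus strand: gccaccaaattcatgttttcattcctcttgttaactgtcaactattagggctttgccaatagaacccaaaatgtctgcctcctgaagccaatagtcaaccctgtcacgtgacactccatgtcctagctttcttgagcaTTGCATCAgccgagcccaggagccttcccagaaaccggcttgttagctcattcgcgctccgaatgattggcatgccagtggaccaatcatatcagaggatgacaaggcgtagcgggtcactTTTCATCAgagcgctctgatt
Gars, chr6:55037751-55038030, plus strand: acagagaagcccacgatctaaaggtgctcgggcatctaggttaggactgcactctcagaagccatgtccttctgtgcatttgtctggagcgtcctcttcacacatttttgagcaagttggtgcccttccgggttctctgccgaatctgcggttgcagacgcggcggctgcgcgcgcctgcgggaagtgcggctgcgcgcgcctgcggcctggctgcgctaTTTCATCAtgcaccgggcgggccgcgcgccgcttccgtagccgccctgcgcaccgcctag
Yars, chr4:129189653-129189932, plus strand: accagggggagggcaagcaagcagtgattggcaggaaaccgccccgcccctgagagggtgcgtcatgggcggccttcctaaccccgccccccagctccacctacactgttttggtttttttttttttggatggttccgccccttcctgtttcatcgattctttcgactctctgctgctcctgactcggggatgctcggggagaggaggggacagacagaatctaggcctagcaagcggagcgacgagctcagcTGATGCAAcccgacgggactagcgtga
Iars, chr13:49681880-49682159, plus strand: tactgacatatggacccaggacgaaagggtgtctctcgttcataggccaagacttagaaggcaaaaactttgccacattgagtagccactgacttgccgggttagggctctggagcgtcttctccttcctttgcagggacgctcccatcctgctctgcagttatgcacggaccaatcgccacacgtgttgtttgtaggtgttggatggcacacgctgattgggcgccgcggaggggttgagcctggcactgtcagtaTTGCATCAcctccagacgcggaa

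*Aars* held 2 matches, and the other 4 promoters held 1 each. In *Tars* the match covers window bases 236 to 243, just upstream of the start, in *Gars* 221 to 228, and in *Yars* and *Iars* it lies just downstream of it, at bases 254 to 261 and 258 to 265. The longer form TGATGCAAT, which contains the core, was present in *Aars* and *Iars* and in 0.192% of all windows. Neither motif was found in the windows of *Sars* and *Mars*. E2F motifs (TTTCCCGC, TTTGGCGC, TTTGCCGC or TTTCGCGC) were in 0 of the 7 windows and in 2.26% of all windows. These are matches of letters, not measured binding.

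Per kilobase of exon, the members spanned a moderate range at 0 h in the 8 mice of the LKO cohort. The length used joins all annotated exons of a gene, from 3119 bases for *Gars* to 9282 for *Aars*, and can exceed that of a single transcript. The order below depends on it. By CPM alone, the mean of *Aars* (241) stood above that of *Nars* (120). *Nars* (27.6 ± 7.19 CPM per kb, SD, n = 8) and *Aars* (26 ± 5.94) stood highest. *Mars* (19.1 ± 3.44), *Tars* (17.3 ± 3.31), *Sars* (15.9 ± 1.83) and *Gars* (15.5 ± 1.74) followed. *Iars* (8.32 ± 2.00), *Wars* (7.77 ± 1.72), *Yars* (6.52 ± 1.74) and *Lars* (6.48 ± 0.585) were lowest. In this order, neighbours differed by more than the larger of their SDs at 2 places, between *Aars* and *Mars* and between *Gars* and *Iars*, where the gap was 3.58 SD. Over all 24 libraries, the highest level was 3.50 times the lowest for *Tars* and 3.32 times for *Wars*, the widest ranges of the group, and 1.99 times for *Nars*, the narrowest.

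*Tars* was the one member with a large difference between HKO and AAV8-TBG-Null labels at 0 h. The AAV8-TBG-Null controls had 49.0, 48.6 and 54.8 CPM, and the 3 mice labelled HKO had 111.1, 100.9 and 121.4 CPM. The groups did not overlap, and the means were 50.8 ± 3.44 and 111.1 ± 10.2 CPM (SD, n = 3 each), a log2 fold change of 1.14 (SE 0.10) or 2.21-fold. In the 8 mice of the LKO cohort, *Tars* ranged from 74.6 to 124 CPM, with a median of 103 CPM. All 3 mice labelled HKO lay within that range and all 3 AAV8-TBG-Null controls lay below it, and cohort and virus cannot be told apart. *Tars* spans chromosome 15 from 11382301 to 11399665 on the minus strand (GRCm38).

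The other members did not share the size of the *Tars* difference. *Mars* had 43.7, 41.5 and 53.5 CPM in AAV8-TBG-Null controls and 60.9, 55.7 and 48.8 CPM in mice labelled HKO, a log2 fold change of 0.27 (SE 0.13) with overlapping groups. *Wars* was next (0.26, SE 0.16), with 12.1 to 17.0 CPM against 17.0 to 19.4 CPM, and its groups touched without overlapping. *Sars* had a log2 fold change of 0.25 (SE 0.11), with 47.6 to 60.0 CPM in controls and 56.9 to 65.7 CPM in mice labelled HKO. The values for *Yars* (0.16), *Lars* (0.10), *Aars* (0.08), *Gars* (0.08), *Nars* (0.02) and *Iars* (-0.01) were smaller still. *Nars* was almost the same in the 6 mice, at 81.4 to 88.0 CPM and 83.4 to 87.0 CPM. Of the 10 members, 9 had a positive fold change, with a median of 0.13 beside 0.01 over all 12397 genes tested. *Tars* alone met the criteria for a call (adjusted p-value under 0.05 and a change of at least 1.5-fold), which 0.960% of all genes met. The HKO values lay above all controls for *Tars*, *Gars*, *Wars* and *Yars*, as they did for 7.93% of genes. Since *Tars* in this contrast is why the group was chosen, nothing is read from these counts.

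**Figure D1:**
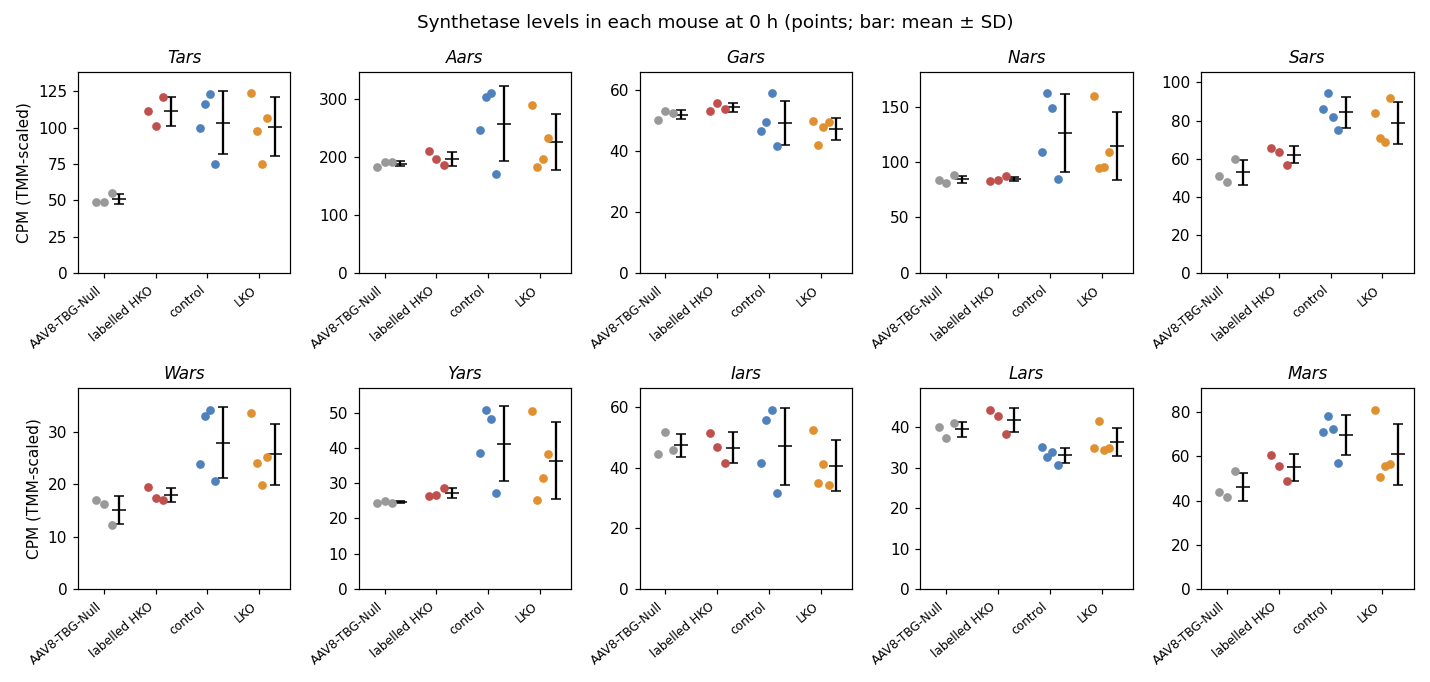
CPM of each member at 0 h (y axis, from 0) in each mouse, by labelled group (x axis), with the mean and SD of the group beside the points. The AAV8-TBG-Null controls lie below all mice of the other groups for Tars (48.6 to 54.8 CPM against 74.6 CPM and more), and by narrow margins for Wars and Yars.

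No synthetase outside the group was called in the HKO comparison. Among the other cytoplasmic synthetases, 0 of 11 were called, with log2 fold changes of -0.22 to 0.23. The closest paralog of *Tars* is *Tarsl2*, a second threonyl-tRNA synthetase gene. It had 16.3 to 21.7 CPM in AAV8-TBG-Null controls and 14.6 to 18.1 CPM in mice labelled HKO, a log2 fold change of -0.22 (SE 0.15, adjusted p = 0.622). *Tars2*, the mitochondrial threonyl-tRNA synthetase, had a value of 0.11 (SE 0.12, adjusted p = 0.795), and 0 of 17 mitochondrial synthetases were called. In the integrated stress response list 0 of 22 tested genes were called, with 10 positive and 12 negative, and 8 had an unadjusted p under 0.05 in edgeR's test, beside 1598 of all 12397 genes, and *Atf4* itself had -0.07 (SE 0.11). Of 12 interferon response genes, 11 were positive, with a median of 0.69, and 3 had an unadjusted p under 0.05 in edgeR's test. Among them *Irf1*, a transcription factor of that response, was the 1 call and rose (log2 fold change 0.79, SE 0.14, adjusted p = 0.0348).

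Circadian clock genes differed between the same mice. Of 16, 1 was called higher and 6 lower in mice labelled HKO. *Arntl*, the core activator of the clock, had 2.49 to 4.39 CPM in AAV8-TBG-Null controls and 12.0 to 18.6 CPM in mice labelled HKO (log2 fold change 2.24, SE 0.25, adjusted p = 0.00346). *Dbp*, a clock output factor, fell by 2.70 on the log2 scale (SE 0.40, adjusted p = 0.0176), and *Usp2*, a rhythmic deubiquitinase, fell by 3.53 (SE 0.53, adjusted p = 0.018). Whether these genes have a part in the *Tars* difference was not tested.

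No member was called between LKO and control labels at 0 h, where 0% of all genes were called and 352 of 12426 had an unadjusted p under 0.05 in edgeR's test. *Tars* had 99.6, 116.4, 123.2 and 74.6 CPM in controls and 123.5, 97.8, 74.6 and 106.8 CPM in mice labelled LKO. The groups overlapped fully, with a log2 fold change of -0.03 (SE 0.19, 95% interval -0.40 to 0.34). The members' log2 fold changes ran from -0.20 (*Iars*) to 0.14 (*Lars*), each with an adjusted p of 0.999, and 9 of 10 were negative, with a median of -0.12 beside -0.0012 over all genes. Leaving out 1 mouse moved that median to between -0.30 (without LKO mouse 1) and -0.04 (without control mouse 2), and it was -0.26 without control mouse 4, -0.19 without control mouse 1, -0.06 without control mouse 3 and -0.05 without LKO mouse 2 or 3. With only the 5 mice with the most reads, an alternative chosen after seeing the data, 6 of 10 were positive and the median was 0.02. Scaling to library size alone moved all genes alike, to a median of 0.13 over all genes and 0.01 over the members. In the unfolded protein response list, 8 of 8 genes were negative and 0 were called. Hepatocyte markers were negative in 7 of 7 (median -0.21). Macrophage markers were positive in 6 of 6 (0.35) and interferon response genes in 12 of 12 (0.37), with 0 called in each list. The part of these lists in the members' values was not tested.

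Within the genotypes, the same mice were high for most members at 0 h. Control mice 2 and 3 and LKO mouse 1 had the 3 highest levels for 8 of the 10 members (*Sars* and *Lars* were the exceptions), while the same 3 mice were highest for 9.82% of the 12426 genes. For *Yars*, these mice had 50.8, 48.1 and 50.6 CPM, and the other 5 had 25.1 to 38.5 CPM. For *Nars*, they had 162, 149 and 159 CPM, and the others 84.99 to 109 CPM. Control mouse 4 was lowest for 6 of 10 members, and for 10.9% of all genes. The highest mouse exceeded the lowest by 1.36-fold for *Lars* to 2.02-fold for *Yars*. The median member stood 0.30 to 0.32 above its own mean on the log2 scale in the 3 high mice, and 0.38 below it in control mouse 4 (log2 value -0.38).

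The same 3 mice were highest for 7 of 8 unfolded protein response genes and for 6 of the 11 other cytoplasmic synthetases. At the low end, control mouse 4 was lowest for 2 of the 8 unfolded protein response genes. The median of that list was about alike in control mouse 4 (-0.74), LKO mouse 2 (-0.74) and LKO mouse 3 (-0.75). The members' median was also lowest in those mice (-0.38, -0.24 and -0.25). Control mice 2 and 3 and LKO mouse 1 were highest for 3 of 17 mitochondrial synthetases and 3 of 21 integrated stress response genes. *Hspa5*, the main chaperone of the endoplasmic reticulum, ranged from 814 to 2899 CPM over the 4 control mice, and was chosen for mention after its values were seen. These 3 high mice also had the fewest reads on genes of the 8, from 12665686 to 15186513 against 16718757 to 19046197. They had the largest share of reads assigned to no gene, from 29.2% to 39.9% against 21.0% to 25.8%. The part of depth and of reads assigned to no gene in this order was not tested. The pattern was noticed in these data, and is given as a description.

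**Figure D2:**
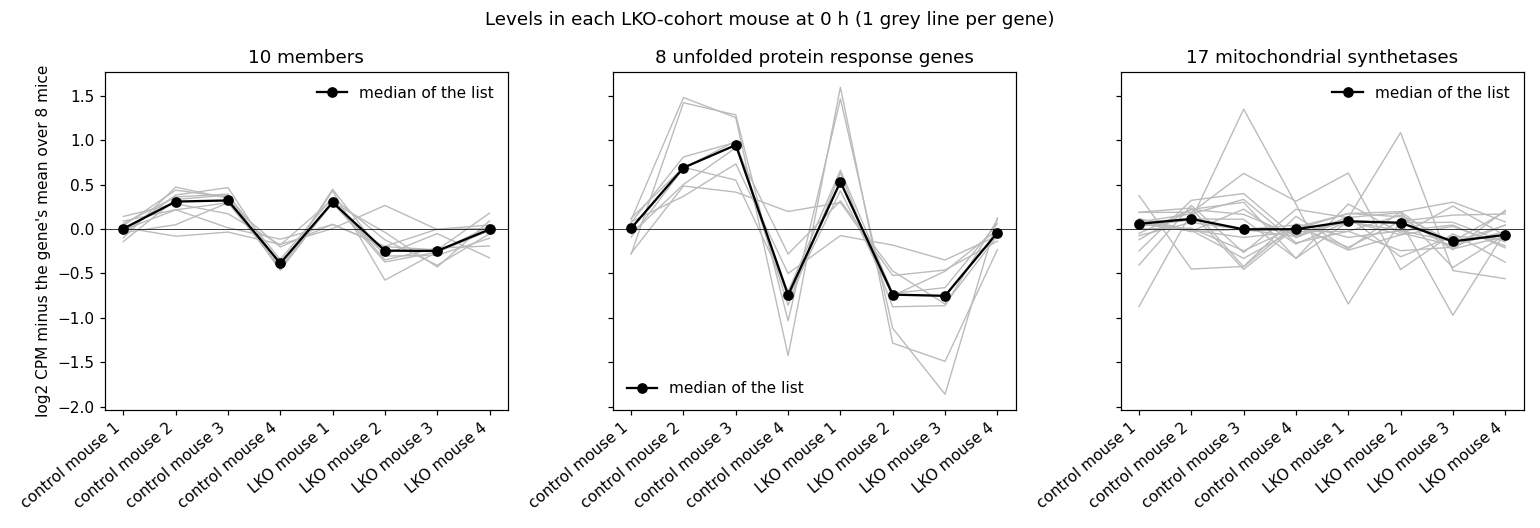
Log2 CPM minus the gene's mean over the 8 LKO-cohort mice at 0 h (y axis) for each mouse (x axis), with 1 grey line per gene and the list's median in black. Members and unfolded protein response genes peak in control mice 2 and 3 and LKO mouse 1 (members' medians of 0.30 to 0.32), and the medians of the mitochondrial synthetases stay between -0.14 and 0.11.

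After APAP, *Gars*, *Lars* and *Iars* rose at 12 h, and in edgeR's fit over all 18 libraries no member was called lower at any time. *Mars* was called lower at 48 h or 72 h when some single libraries were left out. With no library left out, it was called lower at 48 h by DESeq2 and by a joint fit with the HKO cohort. The 5 times were each compared with the same 8 mice at 0 h, in both genotypes together, so the comparisons share those mice. At 12 h, 3 of 10 members were called, all higher, where 31.0% of all genes were called and 16.7% were called higher. All 10 had positive fold changes, with a median of 0.39 beside -0.01 over all genes.

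*Lars*, a subunit of the multisynthetase complex that also signals leucine to mTORC1, had the largest increase at 12 h. It had 30.7 to 35.1 CPM in the 4 control mice and 34.5 to 41.7 CPM in the 4 mice labelled LKO at 0 h, and 54.0 CPM in the control pool and 76.8 CPM in the LKO pool at 12 h. Both pools lay above all 8 mice, and the log2 fold change was 0.91 (SE 0.14, adjusted p = 0.00013). At 24 h the pools had 52.0 and 65.3 CPM (0.75, SE 0.14, adjusted p = 0.000973), and from 48 h on they had 41.2 to 44.8 CPM, above the mean of their genotype at 0 h in every pool. The call at 24 h was lost without the LKO pool of that time (0.64, adjusted p = 0.0518).

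*Gars* was called at 12, 24 and 48 h. Its level was 41.7 to 59.0 CPM in control mice and 42.0 to 49.9 CPM in mice labelled LKO at 0 h. The control pools then had 85.1, 83.3, 93.3, 65.3 and 62.4 CPM at 12 to 96 h, and the LKO pools 78.8, 87.1, 71.5, 57.8 and 49.2 CPM. Every pool through 48 h lay above all 8 mice at 0 h. The log2 fold changes were 0.77 at 12 h (SE 0.14, adjusted p = 0.000664), 0.82 at 24 h (SE 0.14, adjusted p = 0.000601) and 0.76 at 48 h (SE 0.14, adjusted p = 0.00155), and 0.35 at 72 h, where it was not called (adjusted p = 0.104). Without the control pool at 48 h the value at that time was 0.61 with an adjusted p of 0.0818.

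*Iars*, also of the multisynthetase complex, rose at 12 h. Its level was 31.8 to 59.1 CPM over the 8 mice at 0 h, and 64.3 CPM in the control pool and 74.6 CPM in the LKO pool, both above all of them. Its log2 fold change was 0.67 (SE 0.21, adjusted p = 0.0184), and the call was lost when either 12 h pool was left out (0.79 with an adjusted p of 0.0686, and 0.53 with an adjusted p of 0.179). Thereafter *Iars* returned to between 31.2 and 50.8 CPM in the pools.

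*Sars* came close to a call at 12 h. It had 68.8 to 94.3 CPM over the mice at 0 h, 141.9 CPM in the control pool and 101.0 CPM in the LKO pool, a log2 fold change of 0.58 (SE 0.15, adjusted p = 0.00804), which is 1.49-fold and so just under the limit. In the pools at 48 h and later it had 63.0 to 79.4 CPM. *Yars* had 53.6 CPM in both pools at 12 h, above its highest mouse (50.8 CPM), with a log2 fold change of 0.48 (SE 0.23, adjusted p = 0.111), and 26.6 to 37.3 CPM thereafter.

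*Tars* was not called at any time after APAP. Its level was 74.6 to 124 CPM at 0 h. The control pools had 133.7, 122.7, 94.6, 108.3 and 127.1 CPM, and the LKO pools 115.0, 144.4, 135.3, 117.2 and 170.2 CPM. Of these 10 pools, 9 lay above the mean of their own genotype at 0 h, and the LKO pool at 96 h was the highest *Tars* value of all 24 libraries. The largest log2 fold change was 0.54 at 96 h (SE 0.20, adjusted p = 0.216), where 0.462% of all genes were called, and the smallest 0.14 at 72 h.

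*Mars* lay below the mean of its genotype at 0 h in all pools but 1. *Mars*, which supplies initiator methionyl-tRNA as well, had 50.6 to 81.2 CPM at 0 h, and then 55.4, 46.1, 37.7, 43.1 and 52.5 CPM in the control pools. In the LKO pools it had 88.6 CPM at 12 h and 44.2 to 52.2 CPM later. Its log2 fold change was -0.60 at 48 h (SE 0.21, adjusted p = 0.0602) and -0.58 at 72 h (SE 0.21, adjusted p = 0.0656), neither of which was called. *Aars* lay above that mean in 1 of 5 control pools and 3 of 5 LKO pools. It had 171 to 310 CPM at 0 h and 141.9 CPM in the control pool at 48 h, its lowest value of all, with a log2 fold change of -0.52 (SE 0.25, adjusted p = 0.157) at that time. At 12 h *Aars* had 225.9 CPM in the control pool and 322.7 CPM in the LKO pool. The control pool lay within the control mice (171 to 310 CPM), and the LKO pool lay above every mouse at 0 h.

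*Nars* and *Wars* were called at no time. *Nars* had 99.2 to 158 CPM over the 10 pools, within the 84.99 to 162 CPM of the mice at 0 h. *Wars*, the interferon-inducible member, had 40.2 CPM in the LKO pool at 24 h, above all mice (19.7 to 34.2 CPM), and a log2 fold change of 0.46 at 24 h (SE 0.21, adjusted p = 0.111).

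**Figure D3:**
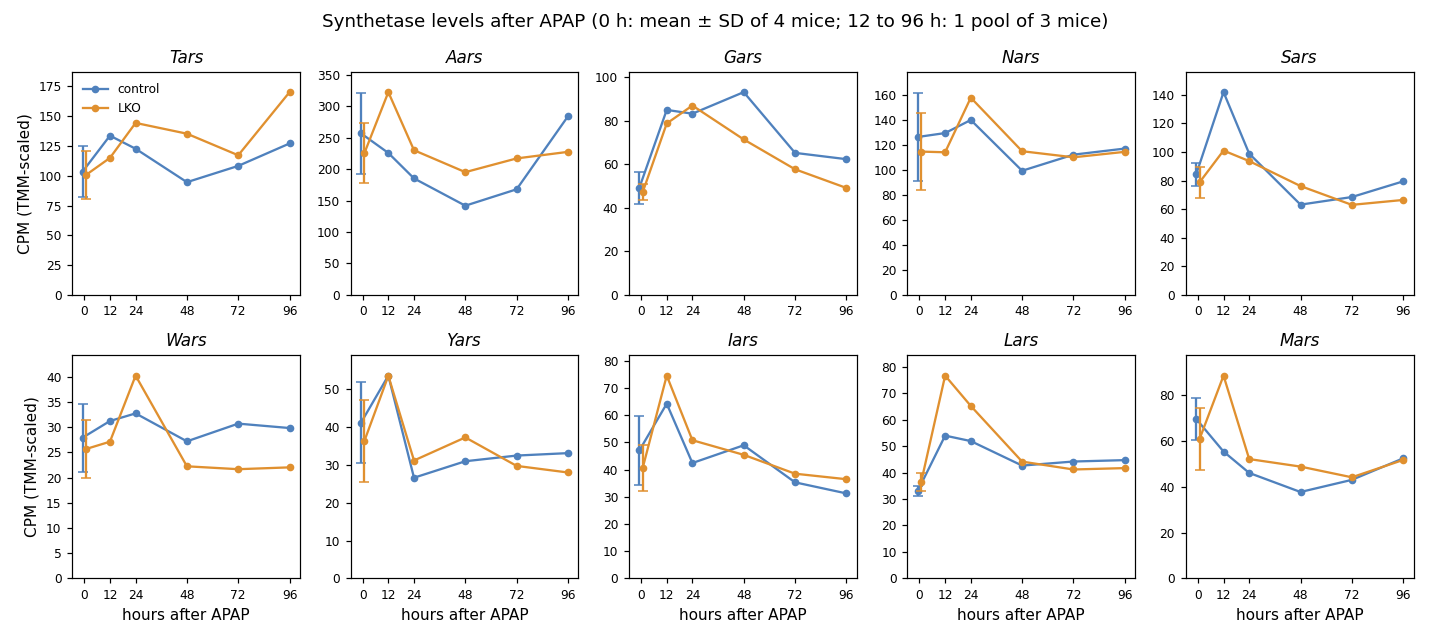
CPM of each member (y axis, from 0) against hours after APAP (x axis) for control (blue) and LKO (orange) labels, with the mean and SD of 4 mice at 0 h and 1 pool of 3 mice at each later time. Gars and Lars lie above their 0 h mice at 12 and 24 h in both genotypes, and Tars reaches 170.2 CPM in the LKO pool at 96 h.

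At 24 h, 2 of 10 members were called, both higher, with 25.6% of all genes called and 13.9% called higher. The count at 48 h was 1 of 10, with 16.4% of all genes called and 9.89% called higher. At 72 h it was 0 of 10, with 16.8% of all genes called, 11.0% higher and 5.77% lower. At 96 h it was 0 of 10, with 0.462% of all genes called, 0.332% higher and 0.130% lower. At an unadjusted p under 0.05 in edgeR's test, 3 members passed at 72 h and 2 at 96 h, beside 4473 and 2140 of all 13855 genes. The medians of the members were 0.27, -0.14, -0.18 and -0.06 at 24, 48, 72 and 96 h. Leaving out 1 library moved them to between 0.18 and 0.34 at 24 h and between -0.20 and -0.01 at 48 h. The range was -0.24 to -0.10 at 72 h and -0.19 to 0.02 at 96 h, where the sign was not stable. The 3 mice with the fewest reads at 0 h are also those highest for 8 of the 10 members, so leaving them out lowers the baseline by construction. Without them, an alternative chosen after seeing the data, 5 members were called at 12 h (*Yars* and *Sars* in addition) and 4 at 24 h (*Nars* and *Wars* in addition), and the medians were 0.55 and 0.46. The medians at 48, 72 and 96 h were then 0.11, 0.10 and 0.20, from which nothing is read. Scaling to library size alone put the members' median at 48 h at 0.06 and that of all genes at 0.20, so the members stayed below all genes there. At 48 h the count was 0 without the control pool of that time, and 2 without either 12 h pool or without LKO mouse 2, the second being *Mars*, which was lower. At 72 h it was 1 without LKO mouse 2, *Mars* again (-0.62, adjusted p = 0.048 in edgeR's quasi-likelihood test).

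Beside the members, the rest of the synthetase set showed calls in both directions. Of the 11 other cytoplasmic synthetases at 12 h, *Farsa*, a subunit of phenylalanyl-tRNA synthetase, rose (log2 fold change 0.61, SE 0.14, adjusted p = 0.00374), and *Dars*, for aspartate, fell by 0.60 (SE 0.20, adjusted p = 0.0287). At 24 h *Rars*, for arginine, rose by 1.01 (SE 0.16, adjusted p = 0.000328) and *Hars*, for histidine, by 0.63 (SE 0.15, adjusted p = 0.00654). None of the 11 was called from 48 h on, where 2, 3 and 1 had an unadjusted p under 0.05 in edgeR's test. *Tarsl2* had 14.4 to 17.4 CPM in mice labelled LKO at 0 h and 12.8 to 15.5 CPM in controls, and 6.43 to 14.9 CPM in the pools, and was called at no time.

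Of the 17 mitochondrial synthetases, 5 fell and 1 rose at 12 h, beside 14.3% and 16.7% of all genes. At 24 h 4 fell and 1 rose (11.7% and 13.9% of all genes), at 48 h 2 fell (6.52%), at 72 h 4 fell (5.77%) and at 96 h 0 were called, with 1 at an unadjusted p under 0.05. *Nars2* fell by 0.92 at 12 h (SE 0.23, adjusted p = 0.00513) and by 0.96 at 24 h (SE 0.23, adjusted p = 0.0049). *Lars2* fell by 1.79 at 24 h (SE 0.49, adjusted p = 0.013) and by 1.61 at 72 h (SE 0.49, adjusted p = 0.0307), but at 0 h it already ranged from 237 to 1180 CPM. *Mars2* rose by 1.38 at 12 h (SE 0.37, adjusted p = 0.00844) from a low level of 17 to 44 counts per mouse. *Vars2* fell by 0.94 at 72 h (SE 0.20, adjusted p = 0.00345) and by 0.59 at 48 h (SE 0.19, adjusted p = 0.0453), where *Fars2* fell by 0.62 (SE 0.20, adjusted p = 0.0406).

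**Figure D4:**
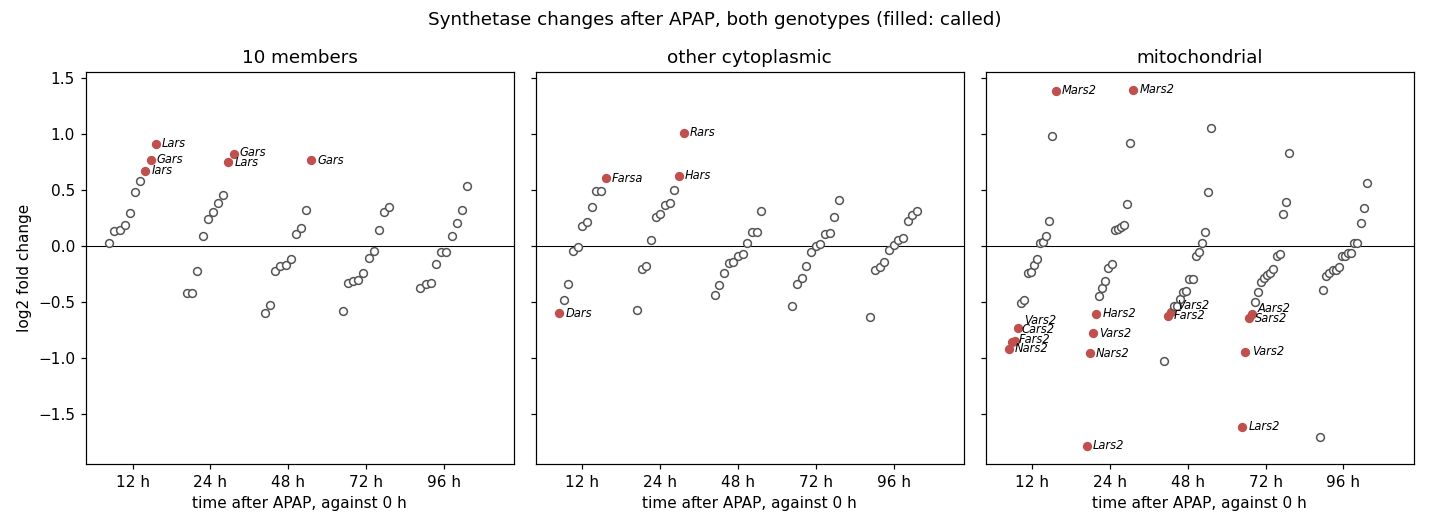
Log2 fold change against 0 h (y axis) at each time after APAP (x axis) for the 10 members, the 11 other cytoplasmic and the mitochondrial synthetases (all but 1 of 17), sorted within each time, with called genes filled and named. Called members lie above 0 (0.67 to 0.91), and most called mitochondrial synthetases lie below it.

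Partners of the synthetases were called too. At 24 h, *Eef1e1*, a scaffold of the multisynthetase complex, had 23.2 and 23.4 CPM in the pools against 5.53 to 8.92 CPM in the mice, a log2 fold change of 1.72 (SE 0.18, adjusted p = 1.23e-05), and *Aimp2* rose by 0.87 (SE 0.18, adjusted p = 0.00193). *Eef1e1* was also called at 48 h (0.67, SE 0.19, adjusted p = 0.0243). Of the 5 elongation factors, which bring charged tRNA to the ribosome or move it along, *Eef2* rose at 12 h (0.69, SE 0.15, adjusted p = 0.00233) and fell by 0.61 at 72 h (SE 0.16, adjusted p = 0.016), and *Eef1b2* rose at 24 h (0.82, SE 0.18, adjusted p = 0.00307).

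In the integrated stress response list, 13 of 27 genes rose at 12 h and 0 fell, beside 16.7% and 14.3% of all genes, and the median log2 fold change was 0.92. *Atf3*, a stress-induced transcription factor, had 1.64 to 8.14 CPM in the mice and 191.8 and 241.8 CPM in the 12 h pools (log2 fold change 6.18, SE 0.37, adjusted p = 2.77e-08). *Psat1*, an enzyme of serine synthesis, rose by 5.35 at 12 h (SE 0.35, adjusted p = 4.08e-08), 5.68 at 24 h and 4.58 at 48 h. *Slc7a11*, the cystine transporter, had 0 or 1 count in each mouse at 0 h and 3.18 and 7.98 CPM in the 12 h pools, so no fold is given. *Atf4*, which like *Psat1* at 12 h was chosen for mention after its values were seen, rose by 1.22 at 12 h (SE 0.26, adjusted p = 0.00212) and 1.05 at 24 h (SE 0.26, adjusted p = 0.0068).

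Later the list moved in both directions, with 11 genes higher and 5 lower at 24 h (13.9% and 11.7% of all genes), 7 and 3 at 48 h (9.89% and 6.52%), 7 and 2 at 72 h (11.0% and 5.77%) and 0 and 1 at 96 h (0.332% and 0.130%). *Chac1*, a glutathione-degrading enzyme, fell by 2.602 at 24 h (SE 0.49, adjusted p = 0.00121), by 1.47 at 48 h and by 1.76 at 72 h. *Slc38a2*, an amino acid transporter, fell by 1.61 at 24 h (SE 0.43, adjusted p = 0.011), *Sesn2*, a sensor of leucine, by 1.29 at 96 h (SE 0.28, adjusted p = 0.0492), and *Phgdh*, of serine synthesis, rose by 4.43 at 72 h (SE 0.57, adjusted p = 3.34e-05) from 0 to 7 counts per mouse. In the unfolded protein response list, *Herpud1*, a factor of protein degradation at the endoplasmic reticulum, fell at 12, 24, 48 and 72 h, by 1.60 at 12 h (SE 0.28, adjusted p = 0.00051). Markers of other cell types moved over the same hours. Cholangiocyte markers summed to 37.5 to 77.3 CPM over the 8 mice at 0 h. At 12 h and 48 h they had 172 and 216 CPM in the control pools, and 36.0 and 86.5 CPM in the LKO pools. Of 5 neutrophil markers tested, 3 were called higher at 12 h, 3 at 24 h and 2 at 48 h, and their sum was 2.46 to 12.0 CPM over the 8 mice and 16.4 and 17.1 CPM in the 12 h pools. Macrophage markers summed to 153 to 385 CPM over the mice, 146 to 158 CPM in the 12 h and 24 h pools and 600 and 618 CPM in the 72 h pools, when 4 of 5 stellate cell markers were called higher. Clock genes were called too (4 higher and 5 lower of 16 at 12 h, where *Dbp* fell by 2.91 on the log2 scale, SE 0.59, adjusted p = 0.00145). The part of these genes in the synthetase values was not tested.

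Between genotypes after APAP, no member was called, where 0.579% of all genes were (0.250% higher and 0.329% lower). With the time points as blocks, log2 fold changes of LKO over control pools ran from -0.24 for *Wars* (SE 0.16, adjusted p = 0.452) to 0.26 for *Aars* (SE 0.17, adjusted p = 0.445), with 7 of 10 positive, a median of 0.07 and 0 members at an unadjusted p under 0.05 in edgeR's test, beside 2284 of all 12782 genes. Without either 24 h pool or either 48 h pool, 5 of 10 were positive, and the median was 0.03 without the control pool and 0.04 without the LKO pool at 24 h. The widest interval reached 0.59 on the log2 scale (*Aars*, -0.07 to 0.59). *Tars* had a value of 0.20 (SE 0.15, adjusted p = 0.518), higher in 4 of the 5 LKO pools and lower at 12 h. In single pairs of pools, *Mars* differed most at 12 h (log2 ratio 0.68), and at 24 h 9 of 10 members were higher in the LKO pool. At 96 h, 2 of 10 were, *Tars* (0.42) and *Iars* (0.22). These pairs are 1 pool against 1 pool, and no test was made of them.

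The LKO effect after APAP was also compared with that at 0 h. No member was called, and 0% of all genes were, with 1307 of 13855 at an unadjusted p under 0.05 in edgeR's test. The members' differences ran from -0.14 (*Gars*, SE 0.18) to 0.46 (*Aars*, SE 0.27, adjusted p = 0.606), with *Mars* at 0.44 (SE 0.22, adjusted p = 0.559) and *Tars* at 0.25 (SE 0.25, adjusted p = 0.772, 95% interval -0.23 to 0.73). In the stress list, *Eif4ebp1*, a translation inhibitor, fell in LKO pools (-0.87, SE 0.15, adjusted p = 0.0417), the one call among 26 genes of that list between the genotypes. Of the 26, 19 were negative, with a median of -0.50, and 13 had an unadjusted p under 0.05 in edgeR's test, beside 2284 of all 12782 genes. Without the time points as blocks, 0 genes were called, so this call was lost.

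To see which genes had a profile most like that of *Tars*, log2 CPM was centred for each gene over the 18 libraries of the LKO cohort, and 8024 genes were ranked by the root-mean-square difference from *Tars*, on the log2 scale. The closest were *Pnp*, a purine nucleoside phosphorylase (0.198), *Rbm7* (0.217), *Dld* (0.220), *Lgals8* (0.225), *Nemf* (0.226), *Thoc5* (0.229), *Copb2* (0.229) and *Psmd6* (0.231). *Nemf* encodes a factor of ribosome quality control, *Copb2* a coat protein of Golgi vesicles and *Psmd6* a proteasome subunit. The nearest member was *Nars*, at rank 14 (0.237), and the next were *Wars* at rank 250 and *Lars* at rank 787. The remaining members lay between rank 829 (*Aars*) and rank 3217 (*Mars*). The difference was not scaled to a gene's spread, so genes that varied little also ranked near *Tars*. *Tars2*, with an SD of 0.137 on the log2 scale beside 0.302 for *Tars*, stood at rank 211 (0.295), ahead of *Wars*. Ranks past such a gene do not show a course shared with *Tars*. Among the members, the closest pair was *Nars* and *Wars* (0.159), followed by *Aars* and *Mars* (0.190), and the most distant was *Gars* and *Mars* (0.569). The libraries share cohort and baseline mice, so the ranks are a description.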

How the data were processed

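RNA was sequenced from whole mouse liver. The authors aligned the reads with STAR to mm10 and deposited its counts per gene, which are raw. The unstranded counts were used, so reads of a gene and of an antisense partner cannot be told apart. Entries that name no gene took 18.7% to 39.9% of reads and were left out of library sizes. In R 4.3.3, edgeR 4.0.16 with TMM scaling and its quasi-likelihood test was fitted for each comparison over all genes kept by its filter on low counts. A gene was called at a Benjamini-Hochberg adjusted p under 0.05, over all genes tested, and a change of at least 1.5-fold. CPM are counts on genes scaled to library size with TMM factors over the 24 libraries, and log2 CPM used a prior count of 2. The HKO cohort was fitted apart from the LKO cohort, time points were blocks among the pools, and 0 h mice of both genotypes were the baseline for each time. The fits were also run on simulated data, from which nothing is read here. Alternatives were DESeq2 1.42.0, other scalings and filters, a joint fit and leaving out each library. The members and gene lists were chosen with earlier results of these data known. The named genes were the members, called genes of the lists with the largest changes, and the 8 genes nearest to *Tars*. Whether replicates came from separate litters was not stated, and p-values measure the spread between these samples. In the time comparisons that spread is taken over single mice at 0 h and pools together. It holds no measure of the differences between mice after APAP. The values of 1 mitochondrial synthetase are not reported here, though the counts over that list include it.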

Additional observations from a re-analysis of the deposited data

Results flagged for a closer look

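*Lars* stood out in 1 mouse at 0 h. LKO mouse 2 had 41.7 CPM and the other 3 LKO mice had 34.5 to 34.9 CPM, so that the gap to its neighbour was 0.953 of the range of the group. The test covered the 10 members in both genotypes at 0 h, and chance alone sets apart about 1 in 20 groups.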

How the results depend on the processing

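Of 212 recomputed counts of called members, 202 stayed within 1.5 times the reported count, or at 0 where the reported count was 0. Many of the 212 are recounts of such a 0. Of 177 recomputed values of called members, 173 kept the call, 4 lost it and 0 reversed. The 212 include 15 counts of the HKO comparison, by which the group was chosen, and the 177 include 15 values of *Tars* in it. Nothing is read from those. With only the 5 deeper mice at 0 h, chosen after seeing the data, 5 members were called at 12 h and 4 at 24 h, a rise that follows from leaving out the mice with the highest member levels. Leaving out 1 library at a time gave 1 to 2 members at 24 h, 0 to 2 at 48 h and 0 to 1 at 72 h. DESeq2 and the joint fit with the other cohort gave 2 at 48 h, the second being *Mars*, which was lower. The cause of the other shifts was not tested. Over all genes, DESeq2 called 331 genes between HKO and AAV8-TBG-Null labels (119 in edgeR), 606 between the pools of both genotypes (74), 338 at 96 h (64), 3 between LKO and control at 0 h (0) and 39 for the difference of the LKO effects (0). Leaving out 1 library gave 54 (AAV8-TBG-Null mouse 1) to 297 genes (HKO mouse 1) for HKO, 8 (control pool at 12 h) to 145 (control pool at 96 h) for the pools and 7 (LKO pool at 96 h) to 113 (control pool at 12 h) at 96 h. It gave 2151 of 4299 genes at 12 h and 507 of 2274 at 48 h without the control pool of that time, 514 of 2327 at 72 h likewise, and 1177 of 3549 at 24 h without the LKO pool. The joint fit gave 31 genes for HKO, no time block 0 for the pools, no filter on low counts 337 for the pools and a minimum of 10 counts 34, a minimum of 10 counts 1519 at 72 h, and the stranded counts 28 at 96 h. Scaling to library size alone changed the split of higher and lower calls from 52 and 67 to 76 and 58 for HKO, from 32 and 42 to 30 and 12 for the LKO pools, from 1928 and 1621 to 2509 and 1116 at 24 h, from 1370 and 904 to 2201 and 496 at 48 h, and from 1527 and 800 to 1738 and 415 at 72 h. Same-numbered mice did not deviate together (correlations of -0.03 to 0.20 in the HKO cohort and -0.38 to 0.22 in the LKO cohort). With the replicate number as a block, 263 genes were called for HKO and 0 for LKO at 0 h, with 1 and 0 members among them, and nothing is read from the former, since *Tars* there is why the group was chosen. The pools carry no replicate numbers, and those of the same time were paired by the time block instead. Each pool is 1 library, so differences between mice after APAP were not measured.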
